A study of Zea mays with 68 samples.

Results

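The maize profilin rows described here are GRMZM2G140455, named Profilin, GRMZM2G109842, named prf2, and GRMZM5G876285, named prf3. They are 3 of 109715 gene rows and 3 of the 7 rows that bear a profilin name. The rows were picked by identifier after earlier results on the same libraries had shown that they moved in opposite directions between spikelets and the other organs. Their levels across organs are therefore given as a description without a test. Expression was measured by RNA-seq of polyA-selected RNA in inbred line B73, the genotype of all samples, with no treatment, and values are FPKM, which scales fragments to gene length and library size. Of 68 samples of 23 tissues, 11 libraries of 4 tissues could be tied to a table column by name. Stem internodes 6-7 and 7-8 had 3 libraries each, numbered 2 to 4, mature female spikelets had 3, and the vegetative meristem, sampled with tissue around it, had 2. The sources used here give neither plant age nor the number of plants per library, and the meristem and spikelet columns were identified by initials.

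Profilins are small proteins that bind actin monomers. They deliver them to growing filament ends, in plants mostly together with formins, whose proline-rich stretches they also bind. Maize profilins are known in a pollen class, to which PRO1, PRO2 and PRO3 (prf1, prf2 and prf3) belong, and a class found widely in vegetative organs, to which PRO4 and PRO5 belong. Pollen tubes grow at their tips along actin cables and hold much profilin.

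The libraries carried the marker genes of their labels only in part. Floral MADS-box genes marked the spikelets, since the summed level of the 10 matched rows was 1337 to 1434 FPKM there and 3.38 to 14.4 FPKM in the other 8 libraries. The meristem was set apart by the cyclin gene cycD4 (37.0 and 38.6 FPKM, against 2.22 to 5.24 in the internodes), but the homeobox gene kn1 was no higher there (139 and 137 FPKM) than in the internodes (149 to 307 FPKM). Of 6 rows named for secondary cell walls, those of cesa11 and bk2 were at or near 0 in every internode library, and cesa11 also elsewhere. The row of cesa10 stood at 55.7 to 74.1 FPKM in the internodes and 30.7 to 50.7 FPKM in the other libraries. CesA12 stood at 3.16 to 4.90 FPKM in the internodes and 0.478 to 1.97 FPKM elsewhere. BM1 overlapped, at 33.4 to 88.2 FPKM in the internodes and 19.1 to 49.4 FPKM elsewhere. Transcripts typical of green leaf tissue varied within internode 7-8, where the summed level of 9 rows was 234, 751 and 1514 FPKM in libraries 2, 3 and 4. Pollen-type transcripts varied within the spikelets, where the summed level of 7 pollen genes was 111, 84.2 and 44.1 FPKM in libraries 1, 2 and 3. Without ZmPK4, the 1 of them not called there, the sum was 83.55, 54.0 and 15.4 FPKM.

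Profilin (GRMZM2G140455) was highest in the stem internodes. Internode 6-7 held 171, 118 and 82.0 FPKM in libraries 2, 3 and 4, a mean of 124 ± 44.7 FPKM (SD, n = 3). Internode 7-8 held 19.8, 41.6 and 82.5 FPKM in libraries 2, 3 and 4, a mean of 48.0 ± 31.8 FPKM (SD, n = 3). The internodes thus overlapped, though only through library 4 of each, whose values were nearly equal. The meristem held 9.45 and 7.89 FPKM (mean 8.67 ± 1.10, SD, n = 2), and spikelets held 2.68, 1.45 and 1.62 FPKM (mean 1.92 ± 0.664, SD, n = 3). All 6 internode libraries lay above both meristem libraries, and both meristem libraries lay above all 3 spikelet libraries. Mean levels were 64.5-fold higher in internode 6-7 and 25.03-fold higher in internode 7-8 than in spikelets, and 4.52-fold higher in the meristem than in spikelets. In these bulk samples, fewer cells that express a gene and less of its RNA per cell cannot be told apart.

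Both prf2 and prf3, pollen-class profilins in maize, showed the reverse order. For prf2 (GRMZM2G109842) spikelets held 33.8, 18.3 and 4.59 FPKM in libraries 1, 2 and 3, a mean of 18.9 ± 14.6 FPKM (SD, n = 3). The meristem held 4.12 and 2.59 FPKM of prf2 (mean 3.36 ± 1.09, SD, n = 2), internode 7-8 held 2.84, 2.105 and 0.869 FPKM (mean 1.94 ± 0.995, SD, n = 3) and internode 6-7 held 2.25, 1.64 and 0.604 FPKM (mean 1.498 ± 0.834, SD, n = 3). All 3 spikelet libraries lay above the other 8, but library 3 exceeded meristem library 1 only narrowly. Among the vegetative organs the ranges of prf2 overlapped, apart from the meristem and internode 6-7.

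For prf3 (GRMZM5G876285) spikelets held 43.4, 25.9 and 6.50 FPKM in libraries 1, 2 and 3, a mean of 25.3 ± 18.5 FPKM (SD, n = 3). The meristem held 3.86 and 4.17 FPKM of prf3 (mean 4.02 ± 0.214, SD, n = 2), internode 7-8 held 3.82, 2.38 and 3.28 FPKM (mean 3.16 ± 0.729, SD, n = 3) and internode 6-7 held 2.73, 1.15 and 0.909 FPKM (mean 1.60 ± 0.991, SD, n = 3). Spikelets again lay above all other libraries, both meristem libraries lay just above internode 7-8, and the ranges of the internodes overlapped. The spikelet mean was 6.29-fold the meristem mean for prf3 and 5.64-fold for prf2. Within spikelets the highest library was 6.68 times the lowest for prf3 and 7.37 times for prf2, so the spread among libraries of this tissue was larger than the step between these means. In each of the 8 vegetative libraries Profilin exceeded both prf2 and prf3, and in each of the 3 spikelet libraries it was below both.

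**Figure D1:**
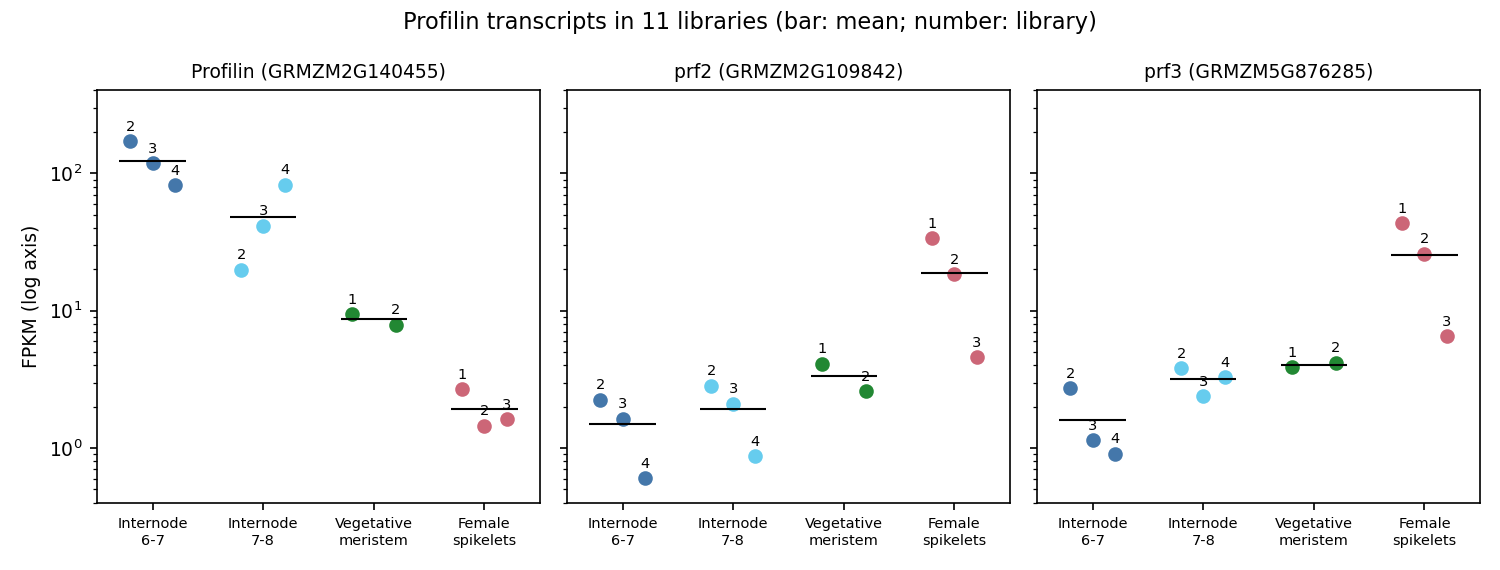
FPKM (log axis) of Profilin, prf2 and prf3 in each of 11 libraries, with the library number above each point and a bar at the tissue mean. Profilin steps down from 171 FPKM in an internode 6-7 library to 1.45 in a spikelet library, whereas prf2 and prf3 are highest in spikelet libraries 1 and 2 and far lower in library 3.

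The change of order was also a change of rank among all transcripts. Among the 29827 genes tested, Profilin stood at the 93.4th to 97.0th percentile of level in internode 6-7 and at the 23.5th to 34.2th percentile in spikelets. The percentile of prf2 in spikelets was 84.3, 75.7 and 43.0 in libraries 1, 2 and 3, and that of prf3 was 87.2, 81.1 and 50.8. In internode 6-7 prf2 lay between the 10.5th and 25.6th percentile. The ratio of Profilin to prf2 ran from 72.0 to 136 in internode 6-7, was 6.99, 19.8 and 94.95 in libraries 2, 3 and 4 of internode 7-8, was 2.29 and 3.05 in the meristem, and was 0.0792, 0.0791 and 0.354 in spikelet libraries 1, 2 and 3.

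The comparison of internode 7-8 with 6-7 is the one in which the genes were not chosen, and it was tested with limma on log2(FPKM + 1) over all genes, with Benjamini-Hochberg adjustment. A call required an adjusted p below 0.05 together with a log2 difference of 1 or more in size. None of the 3 genes met this, against 0.124% of all genes (0.0168% higher and 0.107% lower in internode 7-8). For each of the 3 genes the ranges of the internodes overlapped, whereas 19.3% of all genes had ranges that did not. Profilin had a log2 difference of -1.51 (SE 0.43, 95% interval -2.46 to -0.55), with an unadjusted p of 0.0055 and a limma adjusted p of 0.24. It was the only one of the 3 genes with an unadjusted p under 0.05. For prf2 the log2 difference was 0.23 (95% interval -1.03 to 1.497, limma adjusted p = 0.92), and for prf3 it was 0.73 (95% interval -0.45 to 1.91, limma adjusted p = 0.64). These intervals leave room for a 2-fold difference in prf2 in either direction. In internode 7-8 the libraries with more Profilin were also those with more leaf-type transcripts, since Profilin at 19.8, 41.6 and 82.5 FPKM went with summed leaf markers of 234, 751 and 1514 FPKM. In internode 6-7 Profilin at 171, 118 and 82.0 FPKM went with 1186, 1421 and 1450 FPKM, so the order of the sum was the opposite there. Most of that sum came from lhcb7 (648, 716 and 777 FPKM) and lhcb3 (299, 385 and 407 FPKM). Other leaf rows differed. The rbcS row GRMZM2G113033 fell from 49.1 to 29.0 and 26.3 FPKM, and lhcb4 and Pep1 (GRMZM5G899080) also fell from library 2 to 4. The rows of lhcb5, lhcb6 and the rbcS row GRMZM2G098520 were highest in library 3. The part of leaf-type tissue in the level of Profilin was not tested.

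On the log2(FPKM + 1) scale, which understates the change of low genes, Profilin in the meristem differed from the mean of both internodes by -2.88 (SE 0.43), prf2 by 0.72 (SE 0.57) and prf3 by 0.65 (SE 0.53). Spikelets differed from the mean of the other 3 tissues by -3.67 for Profilin (SE 0.36), by 2.34 for prf2 (SE 0.48) and by 2.48 for prf3 (SE 0.44). Without spikelet library 3 the spikelet difference was 3.08 for prf2 and 3.22 for prf3, and without library 1 it was 1.76 and 1.94. The median of all genes was 0.164 in the meristem comparison and -0.322 in the spikelet comparison, and after median-of-ratios scaling it was 0.036 and -0.038. With this scaling the spikelet differences were -3.41 for Profilin, 2.64 for prf2 and 2.79 for prf3.

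The other 4 profilin rows held most of the summed profilin FPKM in every library. PRO4 (GRMZM2G108780) and GRMZM5G877388, named prf5, together held 80.2% to 95.4% of the summed profilin FPKM in every library. PRO4 stood at 394 ± 42.7 FPKM in internode 6-7 (SD, n = 3), 332 ± 48.6 in internode 7-8 (n = 3), 165 ± 36.9 in the meristem (n = 2) and 436 ± 43.2 in spikelets (n = 3). GRMZM5G877388 followed it closely, with a ratio to PRO4 of 1.15 to 1.33 over the 11 libraries, and whether these rows share reads was not tested. A lower row also named prf5 (GRMZM2G028594) held 31.0, 23.5 and 21.7 FPKM in spikelet libraries 1, 2 and 3. In the vegetative libraries it ranged from 14.1 to 17.8 FPKM. Profilin supplied 8.34% to 17.3% of the family in internode 6-7, 3.07% to 9.295% in internode 7-8, 1.98% and 2.21% in the meristem and 0.135% to 0.235% in spikelets. The share of prf2 was 2.97%, 1.70% and 0.515% in spikelet libraries 1, 2 and 3, and that of prf3 was 3.82%, 2.41% and 0.730%. In the meristem the shares were 0.863% and 0.725% for prf2 and 0.809% and 1.17% for prf3, so that spikelet library 3 lay below both meristem libraries. For prf1 spikelets held 2.93%, 1.73% and 0.704% and the meristem 0.771% and 0.841%. Summed over the family, profilin transcripts reached 1016 ± 52.9 FPKM in internode 6-7 (SD, n = 3), 799 ± 133 in internode 7-8 (n = 3), 417 ± 85.5 in the meristem (n = 2) and 1035 ± 129 in spikelets (n = 3).

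**Figure D2:**
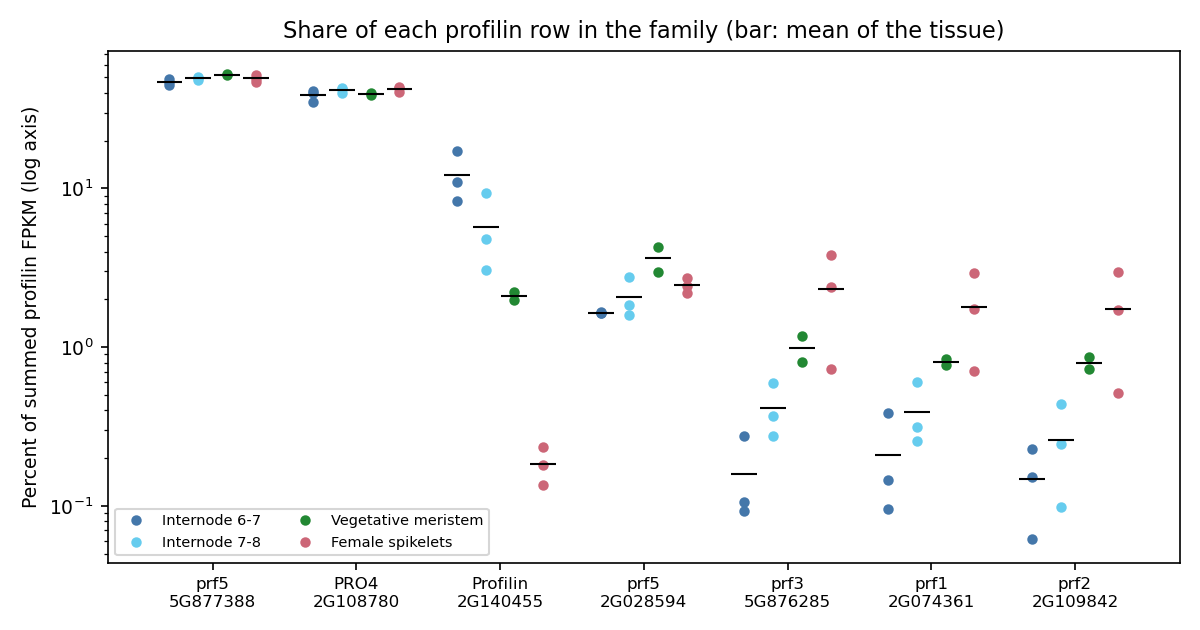
Share of each of 7 profilin rows in the summed profilin FPKM (percent, log axis), 1 point per library, coloured by tissue, with a bar at each tissue mean. The rows of PRO4 and GRMZM5G877388 stay near the same share in all tissues, while Profilin falls from up to 17.3% in internode 6-7 to at most 0.235% in spikelets and prf1, prf2 and prf3 have their highest shares in spikelet libraries 1 and 2, with library 3 below both meristem libraries.

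The remaining pollen-class gene, prf1 (GRMZM2G074361), kept close to prf2 and prf3. It stood at 33.4, 18.6 and 6.27 FPKM in spikelet libraries 1, 2 and 3 and between 0.935 and 3.88 FPKM in the vegetative libraries. In spikelets prf1 rose by 2.22 on the log2 scale against the other tissues (SE 0.42, limma adjusted p = 0.0011, Benjamini-Hochberg). Of the 4 profilin rows outside the chosen genes, 1 was called higher and none lower in this comparison. Over all genes 31.4% were called (11.7% higher and 19.7% lower). The rows not called were also higher in spikelets, PRO4 by 0.65, GRMZM2G028594 by 0.64 and GRMZM5G877388 by 0.57. Their limma adjusted p were 0.0022 to 0.0058 (Benjamini-Hochberg), but the differences fell short of the size required. Over the 11 libraries Pearson's r of log2(FPKM + 1) was 0.98 between prf1 and prf2, 0.99 between prf1 and prf3 and 0.96 between prf2 and prf3, and -0.78 between Profilin and prf2. The prf5 row GRMZM2G028594, outside the pollen class, reached 0.87 with prf1 and with prf2 and 0.83 with prf3. These r describe 4 tissues rather than 11 independent points. Reads may be shared within this class, and GRMZM5G876285 itself matched 2 reference genes, which are neighbours in RefSeq's annotation of Zm-B73-REFERENCE-NAM-5.0. Both carry profilin names, so its level may be that of a pair of genes. The prf5 rows GRMZM5G877388 and GRMZM2G028594 also matched 2 reference genes each, and the positions of those were not examined.

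In the meristem PRO4 fell by 1.13 against the internodes (SE 0.18, limma adjusted p = 0.00093, Benjamini-Hochberg) and GRMZM5G877388 had a log2 difference of -0.999, just short of the size required, where 19.7% of all genes were called (14% higher and 5.61% lower). The PRO4 call was lost without meristem library 2, at -0.91, while GRMZM5G877388 passed after median-of-ratios scaling.

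Transcripts of other pollen genes moved with prf2 and prf3. Matching of names gave 7 pollen markers, among them the beta-expansin genes EXPB1, EXPB9 and EXPB10, which encode the group-1 grass pollen allergens, and 3 polygalacturonase rows. EXPB1 (GRMZM2G146551) stood at 25.7, 17.0 and 4.56 FPKM in spikelet libraries 1, 2 and 3 and between 0.679 and 2.68 FPKM in the vegetative libraries. Spikelets had 6 of the 7 markers higher and none lower, against 11.7% and 19.7% of all genes. The median over the 7 was 1.92 on the log2 scale, against -0.322 for all genes. Testing required 1 FPKM in 2 or more libraries. PG2C (GRMZM2G160526) and PG9 (GRMZM2G394259) reached it only in spikelets, and EXPB10 (GRMZM2G127106) there and in meristem library 2 (1.03 FPKM). These rows were tested only because of the spikelets, so their calls are no separate support. The marker not called, ZmPK4 (GRMZM2G014833), ranged from 14.9 to 47.9 FPKM and had a log2 difference of 0.06. The summed level of the 7 rows was 44.1 to 111 FPKM in spikelets, 44.2 and 55.2 in the meristem and 21.8 to 42.5 in the internodes. ZmPK4 made up most of this sum in the vegetative libraries. Without it the sum was 15.4 to 83.55 FPKM in spikelets, 8.09 and 7.36 in the meristem and 2.60 to 9.09 in the internodes. No row was at 0 in any library. Zm13, another defining pollen gene, was not matched by name and is not analysed here.

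How prf2 and prf3 stood against the pollen genes depended on whether ZmPK4, the most abundant of the 7 in the vegetative libraries, was counted. Per 100 FPKM of all 7 there were 30.5, 21.8 and 10.4 FPKM of prf2 in spikelet libraries 1, 2 and 3, 9.33 and 4.69 in the meristem, 3.94 to 6.67 in internode 7-8 and 2.34 to 10.3 in internode 6-7. The 3 spikelet libraries thus lay above all others, library 3 only narrowly. For prf3 the same ratio was 39.2, 30.8 and 14.7 in spikelet libraries 1, 2 and 3, 8.74 and 7.55 in the meristem, 7.28 to 14.9 in internode 7-8 and 3.52 to 12.5 in internode 6-7, so that 1 library of internode 7-8 reached the lowest spikelet library.

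Without ZmPK4, a choice made after its values had been seen, the ratios overlapped more. Per 100 FPKM of the other 6 genes there were 40.5, 34.0 and 29.8 FPKM of prf2 in spikelet libraries 1, 2 and 3, 51.0 and 35.2 in the meristem, 20.4 to 31.5 in internode 7-8 and 23.2 to 38.1 in internode 6-7. Here the ratio for prf2 in spikelets overlapped that in each of the other tissues. For prf3 it was 42.3 to 52.0 in spikelets, 47.8 and 56.6 in the meristem, 35.5 to 77.2 in internode 7-8 and 26.7 to 39.6 in internode 6-7, which lay below all 3 spikelet libraries. For Profilin it ran from 2.69 in a spikelet library to 3153 in an internode 6-7 library, and with all 7 genes from 1.72 to 783. Whether pollen or its RNA contributed to the level of prf2 and prf3 in any library was not tested.

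**Figure D3:**
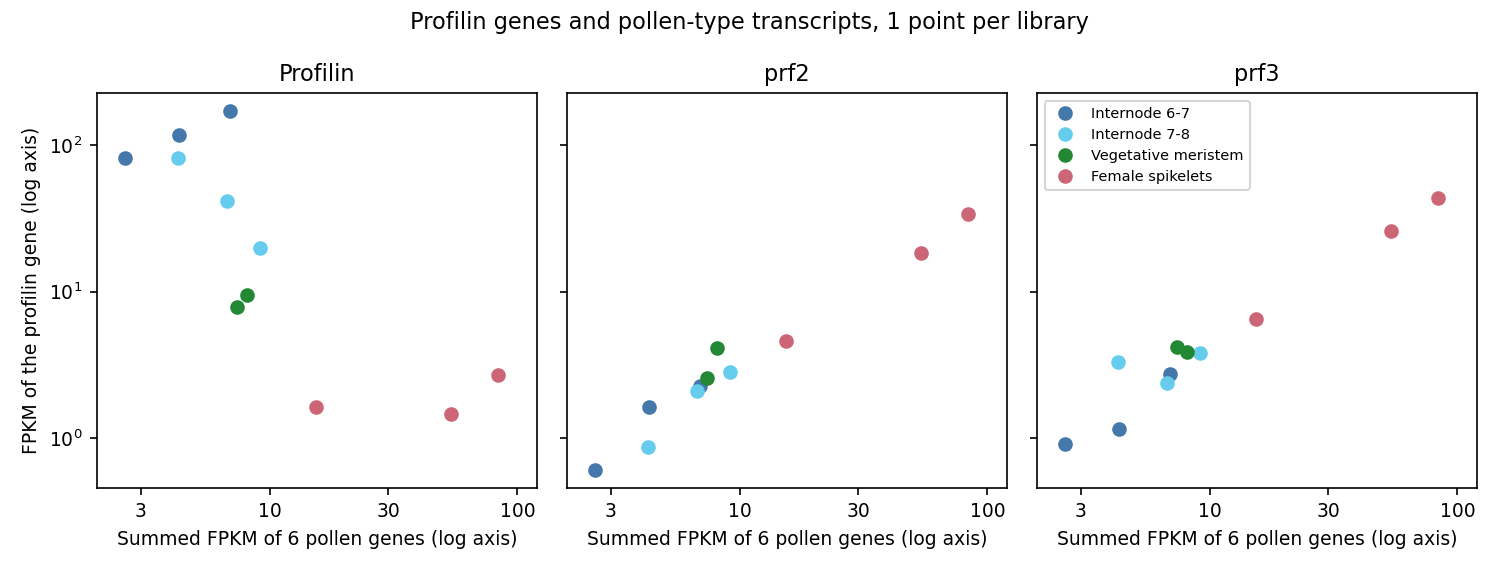
FPKM of Profilin, prf2 and prf3 (log axis) against the summed FPKM of 6 pollen genes without ZmPK4 (log axis), 1 point per library, coloured by tissue. For prf2 and prf3 the points of all 4 tissues lie along a band from internodes to spikelet library 1, whereas Profilin spans 171 to 1.45 FPKM with its lowest values where the pollen genes are highest.

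The genes most like each profilin over the 11 libraries were read by Pearson's r, among genes with a name. For prf2 they were EXPB9 (r = 0.99), EXPB1 (0.99), adf2 (0.99), LIM9 (0.99) and C5, also listed as pme1 (0.98), a pectin methylesterase gene. For prf3 they were the polygalacturonase row GRMZM2G418644 (r = 0.98), EXPB10 (0.98), EXPB9 (0.97), EXPB1 (0.97) and mgs2 (0.97), a gene named for the male gametophyte. An r of at least 0.95 was reached by 171 of 29820 genes outside the family with prf2 and by 157 with prf3. Profilin had other partners, namely bHLH11 (r = 0.97), the actin gene GRMZM2G006765 (0.96), NRH1b (0.96), the sucrose synthase gene sus1 (0.95) and the polyamine oxidase gene MPAO (0.949). An r of 0.95 or more with Profilin was reached by 70 genes, MPAO not among them. The actin gene GRMZM2G006765 stood at 128, 132 and 124 FPKM in internode 6-7, 42.4, 67.5 and 79.3 in internode 7-8, 37.7 and 35.9 in the meristem and 33.4, 25.9 and 27.7 in spikelets. It shared with Profilin the order of the tissue means.

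Actin and the proteins that act on its filaments are the partners of profilin in the cell. Name matching gave 19 tested rows in 5 lists, and no formin or capping protein row was matched. In the meristem all 6 tested actin rows fell against the internodes (median log2 difference -1.41), where 5.61% of all genes were called lower. Leaf markers moved with them, since 6 of 8 tested rows fell and 1 rose (median -2.07), and their summed level was 140 and 128 FPKM in the meristem against 234 to 1514 FPKM in the internodes. Their part in the lower actin levels was not tested. The largest decreases among the actin rows were in GRMZM2G126190, by 1.60, GRMZM2G053299, by 1.47, and GRMZM2G082484, by 1.42 (limma adjusted p between 4.1e-05 and 0.0014, Benjamini-Hochberg). Without meristem library 1 or without library 2, 5 of the 6 rows fell. Summed actin was 2042 ± 20.5 FPKM in internode 6-7 (SD, n = 3), 1894 ± 199 in internode 7-8 (n = 3), 811 ± 53.8 in the meristem (n = 2) and 1631 ± 83.5 in spikelets (n = 3). Summed profilin per summed actin was 0.481 to 0.525 in internode 6-7, 0.349 to 0.502 in internode 7-8, 0.462 and 0.562 in the meristem and 0.573 to 0.703 in spikelets, so that the 3 spikelet libraries lay above all others.

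In spikelets 1 of the 6 actin rows rose and 2 fell, against 11.7% and 19.7% of all genes. GRMZM2G082484 fell by 2.21 and GRMZM2G006765 by 1.17, whereas act1 (GRMZM2G126010) rose by 1.57 (limma adjusted p between 1e-05 and 0.00025, Benjamini-Hochberg). The call for GRMZM2G006765 was lost after median-of-ratios scaling, at -0.84, and the median of the 6 rows turned from -0.33 to 0.01. Of the 3 actin depolymerizing factor rows 2 rose, against 11.7% of all genes, and none fell. These were adf1 (GRMZM2G117603) and adf2 (GRMZM2G097122), pollen forms in maize, which rose by 1.53 each (limma adjusted p = 0.00078 and 0.0018, Benjamini-Hochberg). Outside spikelets adf1 stood at 0.887 FPKM or less. It passed the filter of 1 FPKM only through the spikelets, so its call is no separate support. In spikelet libraries 1, 2 and 3 adf2 stood at 8.83, 7.13 and 2.05 FPKM and adf1 at 6.09, 3.24 and 1.51 FPKM, the order seen for prf2. The widely expressed form ADF3 (GRMZM2G060702) had a log2 difference of 0.59 and did not pass.

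Among the remaining lists, 2 of 5 myosin rows fell in spikelets, both named myosin2 (GRMZM2G034362, by 1.78, and GRMZM2G332687, by 1.58), where 19.7% of all genes were called lower, and none rose. In the meristem 1 of 4 rows of BRICK genes, GRMZM2G180150, named BRK3, fell by 1.54, where 5.61% of all genes were called lower. The other rows named BRK3 were not called, GRMZM2G180166 at -0.36 and GRMZM5G886363 at 0.07. BRICK proteins belong to the complex that activates ARP2/3, an actin nucleator. The single villin row did not pass in either comparison. Between the internodes none of the 19 rows was called with limma, where 0.124% of all genes were called. An unadjusted p under 0.05 was reached by 5 rows, 3 of actin and 2 of myosin. Each was lower in internode 7-8, by 0.42 to 1.06. The share of all genes with such a p was not counted, so this count has no background.

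**Figure D4:**
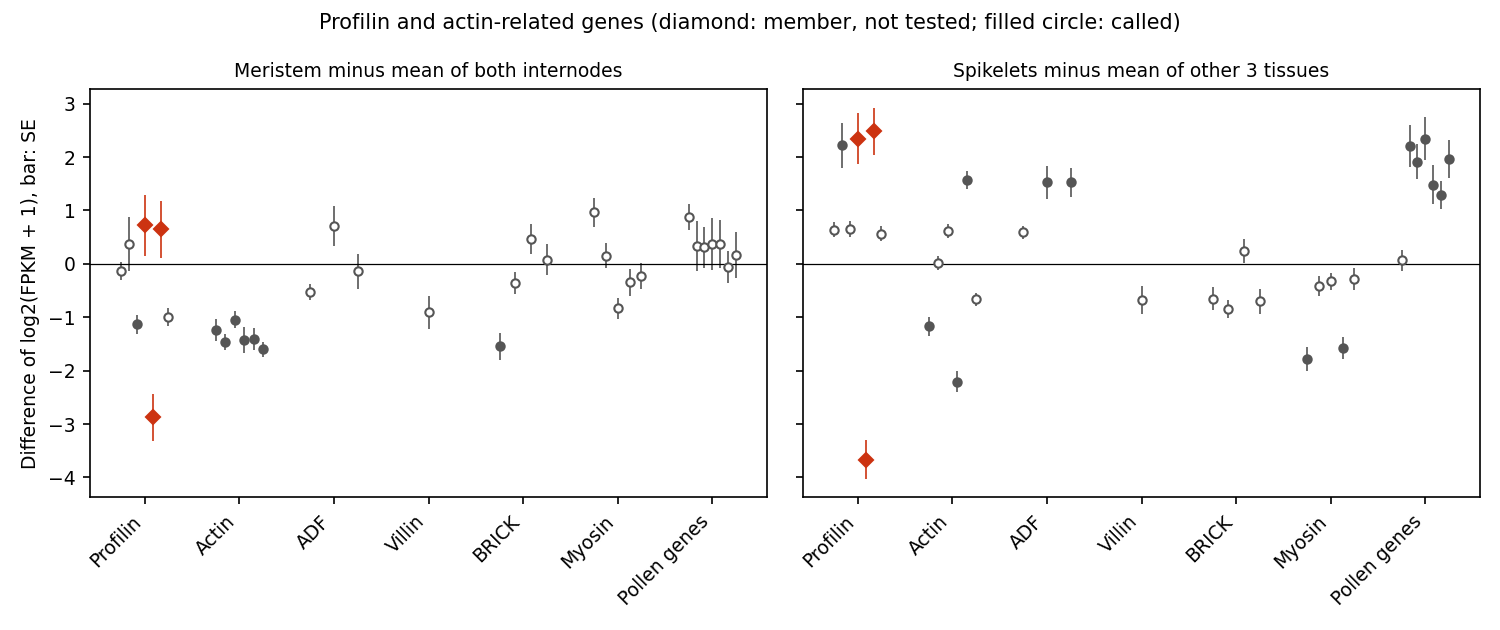
Difference of log2(FPKM + 1) with its SE for profilin, actin-related and pollen rows in the meristem against the mean of both internodes (left) and in spikelets against the mean of the other 3 tissues (right). Red diamonds are Profilin, prf2 and prf3, which were not tested here, filled circles are called rows and open circles are rows not called. Profilin lies lowest in both panels, at -2.88 and -3.67, and on the right prf2, at 2.34, lies within the range of the pollen genes and prf3, at 2.48, just above it.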

How the data were processed

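Libraries were made from polyA-selected RNA with a kit altered to keep strand, per the labels' protocols, and per the submitters' processing notes the tools were Cufflinks 2.1.1, TopHat2 2.0.8b and Bowtie2 2.1.0. For the genome build, the annotation and strand in counting, the sources used here give nothing. Values are FPKM per gene as deposited by the authors, without read counts, so depth is unknown, and an exact 0 can be a failed estimate. Of 68 value columns, 11 matched a tissue in the labels, and the other 57 were not used. Internode columns carry numbers that differ from those of the sample titles. Nothing in the labels says that libraries came from separate plants, and the p-values reflect library-to-library spread alone, which may be technical.

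A gene was tested where 2 or more libraries reached 1 FPKM, which left 29827 genes, and all 7 profilin rows passed. limma 3.58.1 in R 4.3.3 was fitted to log2(FPKM + 1) with 1 mean per tissue and a mean-variance trend, with two-sided tests adjusted by Benjamini-Hochberg over all genes. The procedure was checked on simulated data. The genes, lists and tests were chosen with earlier results of these data known. Names came from RefSeq symbols and synonyms by patterns on names, since most symbols in that table are locus numbers. Named genes were the profilin rows, up to 3 called genes per list and comparison, and the 5 named genes with the highest r for each gene described. Alternatives were another pseudocount (0.1), no filter, median-of-ratios scaling, fits without the trend, with only the tissues compared, with a replicate block and without each library. One gene list is not reported here.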

Additional observations from a re-analysis of the deposited data

How the results depend on the processing

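For Profilin, prf2 and prf3 the spikelet differences kept their direction under all alternatives run, from -4.16 to -3.41 for Profilin. Column numbers recur across tissues, though for the internodes they differ from those of the sample titles. Between the internodes, same-numbered libraries correlated at -0.12, 0.20 and -0.11 in their deviations from the tissue mean. Libraries with different numbers correlated at -0.207 to 0.256. With 3 libraries per internode these values cannot decide whether samples were paired. With the replicate block, which was set by column number, the meristem difference turned to -0.49 for prf2 and -0.30 for prf3. The spikelet differences were then 1.99 and 2.34. Between the internodes, prf2 turned to -0.0584 without internode 6-7 library 4, and without single libraries it ranged from -0.0584 to 0.526. None of the 3 genes was called there under any alternative, and the adjusted p for Profilin ranged from 0.17 to 0.64 without single libraries. The count of changed genes between internodes, 37 of 29827, was 4 with the replicate block, 23 after median-of-ratios scaling and 7 to 161 without single libraries. Leaving out library 3 of internode 7-8 gave 161, leaving out library 2 gave 7 and library 4 gave 8, and leaving out library 3 or 4 of internode 6-7 gave 16. Causes were not tested. In spikelets 3491 genes were higher and 5863 lower, and after scaling 4859 and 3826. In the meristem the split was 4189 and 1674, and after scaling 3273 and 2081.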
